A study of Homo sapiens with 9 samples.

Results

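Matrix metalloproteinases, their TIMP inhibitors and the inducer BSG were followed as 9 genes among the 60325 gene rows of RNA sequencing counts from LAPC4 cells, a human prostate cancer line. The 9 are MMP10, its chromosome neighbours MMP1 and MMP3, the membrane-anchored MMP14 and MMP15, the inhibitors TIMP1, TIMP2 and TIMP3, and BSG, and their rows were found by gene symbol. MMP10 was selected on its higher level in the rescue libraries, so its values are given as a description without a test. The other 8 were taken by family, with that result known.

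Matrix metalloproteinases (MMPs) are zinc-dependent endopeptidases that cut collagens, laminins, proteoglycans and cell surface proteins. Most are secreted as inactive proenzymes, and the membrane-type members work at the cell surface. Tissue inhibitors of metalloproteinases (TIMPs) bind the active site of the enzymes. BSG (basigin, also called EMMPRIN) is a cell surface glycoprotein named for inducing MMP production in neighbouring fibroblasts. In prostate cancer these genes are studied for matrix breakdown and invasion.

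The libraries came from a study of UGT2B28, a glucuronosyltransferase that conjugates androgens and other steroids. Total RNA was taken at day 30 from 3 groups of 3 libraries. The rescue cells carried UGT2B28 overexpression on top of the knockdown, and 1 mg/mL G418 is given as the selection for the rescue. The knockdown-labelled cells, titled KD4, were made to lower UGT2B28, and 3 ug/mL puromycin is given as their selection. The control cells are titled NT, and no drug is given for them. Every group was LAPC4, grown in the same medium with 15% serum. The drug therefore changes with the label, and an effect of G418 or puromycin cannot be told apart from one of UGT2B28.

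The libraries held 8132206 to 14185252 counts on genes. UGT2B28 itself had 1139, 1062 and 539 counts in rescue, 63, 70 and 28 in knockdown-labelled, and 44, 50 and 76 in control libraries. The counts thus do not bear out the knockdown label at the mRNA level (log2 fold change against control -0.04, edgeR adjusted p = 0.957), and the group is called knockdown-labelled throughout. Knockdown libraries 1 and 2 stood apart from library 3: mitochondrially encoded transcripts took 15.1%, 15.8% and 10.2% of their counts, against 5.79% to 7.90% in rescue and 7.62% to 8.57% in control libraries. The luminal prostate markers KLK3 and KRT8 had 5935 to 16849 and 6909 to 17725 counts per library. Of 6 leukocyte markers, PTPRC, LYZ and MS4A1 were at 0 in all 9 libraries, CD3E and CD14 had 0 to 22 counts and CD68 had 27 to 115 counts per library, and the 6 summed to 3.47 to 11.3 CPM (counts per 1000000). The labels do not state that replicates came from separate cultures, and a p-value here covers only how far these libraries vary, which may be technical. In such bulk RNA, fewer cells of a type and less RNA per cell cannot be told apart.

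The 5 MMPs share the catalytic zinc site, in which 3 histidines hold the metal. It is shown here because it makes them one enzyme family and because it separates the chromosome 11 neighbours. Each site is 33 bases of exon 5 of a GENCODE transcript on GRCh38, written in the direction of the gene, with the 3 histidine codons in capitals.
MMP10 (chr11:102776718-102776750, minus strand): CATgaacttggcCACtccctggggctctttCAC
MMP3 (chr11:102840535-102840567, minus strand): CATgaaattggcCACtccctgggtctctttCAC
MMP1 (chr11:102795549-102795581, minus strand): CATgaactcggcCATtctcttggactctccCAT
MMP15 (chr16:58040563-58040595, plus strand): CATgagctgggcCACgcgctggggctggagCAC
MMP14 (chr14:22843283-22843315, plus strand): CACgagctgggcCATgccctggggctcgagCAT
Against MMP10, the site differs at 2 bases in MMP3, at 8 in MMP1, at 8 in MMP15 and at 9 in MMP14. Among MMP10, MMP3 and MMP1, the 3 compared in this way, the stromelysins MMP10 and MMP3 have the longest identical stretch of transcript, 96 bases of coding sequence in MMP10 at chr11:102779216-102779311 (GRCh38, minus strand). The whole run is identical, so no base is in capitals.
MMP10 and MMP3: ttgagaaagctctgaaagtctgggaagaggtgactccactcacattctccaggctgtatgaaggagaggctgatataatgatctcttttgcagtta
MMP10 and MMP1 share at most 18 bases in a row. A trimmed read wholly inside the 96-base stretch cannot be placed on MMP10 or MMP3, whereas no such long stretch joins MMP10 to MMP1.

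MMP10 encodes stromelysin-2, a secreted enzyme that cuts proteoglycans, laminin and fibronectin and can activate procollagenases. Its gene lies at chr11:102770503-102780628 on the minus strand (GRCh38). MMP10 had 267, 178 and 136 counts in rescue, 7, 12 and 14 in knockdown-labelled, and 6, 16 and 9 in control libraries. Scaled to counts per 1000000 with TMM factors (CPM), the level was 17.6, 15.5 and 13.5 in rescue, 0.940, 1.06 and 1.52 in knockdown-labelled, and 0.697, 1.63 and 0.921 in control libraries. All 3 rescue libraries were high and close together, and none of the other 6 came near them. The mean was 15.5 ± 2.04 CPM in rescue, 1.17 ± 0.307 in knockdown-labelled and 1.08 ± 0.486 in control libraries (SD, n = 3 each). That made rescue 13.1-fold above knockdown-labelled (log2 fold change 3.71, SE 0.320, 95% interval 3.00 to 4.42) and 14.1-fold above control (log2 3.82, SE 0.322). These are the differences for which the gene was chosen, and the comparisons share the rescue libraries. Knockdown-labelled and control libraries overlapped, with a log2 fold change of 0.11 (SE 0.383, 95% interval -0.74 to 0.95), whose sign changed with the scaling by library size alone (-0.11).

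The MMP10 promoter is shown because it belongs to the gene with the largest difference and is the only one among the matched promoters to hold an AP-1 motif. It covers 250 bases before to 50 after the RefSeq start (GRCh38.p14, chr11:102780579-102780878, minus strand). Capitals mark, from left to right, an ETS core, a second ETS core, the AP-1 motif and the TATA box.
MMP10 promoter: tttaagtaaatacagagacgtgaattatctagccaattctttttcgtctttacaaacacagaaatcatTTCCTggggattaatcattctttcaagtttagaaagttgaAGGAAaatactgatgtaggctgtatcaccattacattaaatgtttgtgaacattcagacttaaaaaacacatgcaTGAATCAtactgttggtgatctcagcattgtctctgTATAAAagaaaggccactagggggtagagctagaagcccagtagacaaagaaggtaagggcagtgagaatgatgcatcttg
The letters searched, on both strands, were TGANTCA for AP-1, AGGAA for the ETS core, TATAAA for the TATA box and GCGNGGGCG for EGR1, and no 2 of the marked matches overlap. The AP-1 match ended 61 bases before the start and the TATA box match 26 bases before it. Of 35116 RefSeq promoters of the same length, 7.71% held the AP-1 letters, 63.1% the ETS core, 11.5% the TATA box and 9.43% the EGR1 letters. Promoters were matched for 6 of the 9 genes, and MMP1, MMP3 and TIMP2 had no entry. TGANTCA occurred in none of the promoters of MMP14, MMP15, TIMP1, TIMP3 and BSG, and GCGNGGGCG in none of the 6 genes. A match is a run of letters and says nothing here about binding.

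MMP1, the interstitial collagenase, cuts fibrillar collagens, and its start lies 17.5 kb from that of MMP10 (chr11:102789920-102798160, minus strand, GRCh38). MMP1 had 102, 40 and 50 counts in rescue, 4, 14 and 3 in knockdown-labelled, and 1, 14 and 0 in control libraries. The corresponding levels were 6.70, 3.49 and 4.95 CPM in rescue, 0.537, 1.23 and 0.326 CPM in knockdown-labelled, and 0.116, 1.43 and 0 CPM in control libraries. Every rescue library lay above all 6 others, and library 2 was the highest within both the knockdown-labelled and the control group. The mean was 5.05 ± 1.61 CPM in rescue, 0.698 ± 0.475 in knockdown-labelled and 0.514 ± 0.791 in control libraries (SD, n = 3 each). Rescue was 6.89-fold above knockdown-labelled (log2 2.78, SE 0.797, 95% interval 1.03 to 4.54). The edgeR adjusted p was 0.0511, which did not pass the threshold of 0.05. Against control the ratio was 9.46 (log2 3.24, SE 0.831, adjusted p = 0.167). By library size alone, MMP1 reached the filter level of 1.06 CPM in 3 rescue, 0 knockdown-labelled and 1 control libraries. It was thus tested through the group in which it was high, and its p-values are given as a description.

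The call on MMP1 turned on the settings. For rescue against knockdown-labelled it passed in 8 of 19 alternatives, among them DESeq2 (adjusted p = 0.00830), limma-voom (0.0360) and the edgeR fits without knockdown library 3 (0.00790), control library 2 (0.0307) or control library 3 (0.0417). For rescue against control it passed in 5 of 19, with DESeq2 at 0.0117, and control library 2 held 14 of the 15 control counts, so that leaving it out moved the log2 fold change to 6.25 (adjusted p = 0.180). Rescue was the higher group in every one of these alternatives, with a log2 fold change of 2.43 to 3.94 against knockdown-labelled and of 2.65 to 6.25 against control. The alternatives reuse the same libraries on a gene tested through rescue. Their passes and shared direction are therefore a description and add no support.

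MMP3, stromelysin-1, starts 63.2 kb from MMP10 (chr11:102835801-102843803, minus strand, GRCh38) and cuts many of the same matrix proteins. It had 1 count in rescue library 3 and 0 in the other 8 libraries. A count of 0 allows up to 3 counts, which is 0.211 to 0.369 per 1000000 counts in these libraries, from counting error alone. MMP3 was too low to test and was not detectable at this depth outside that library.

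**Figure D1:**
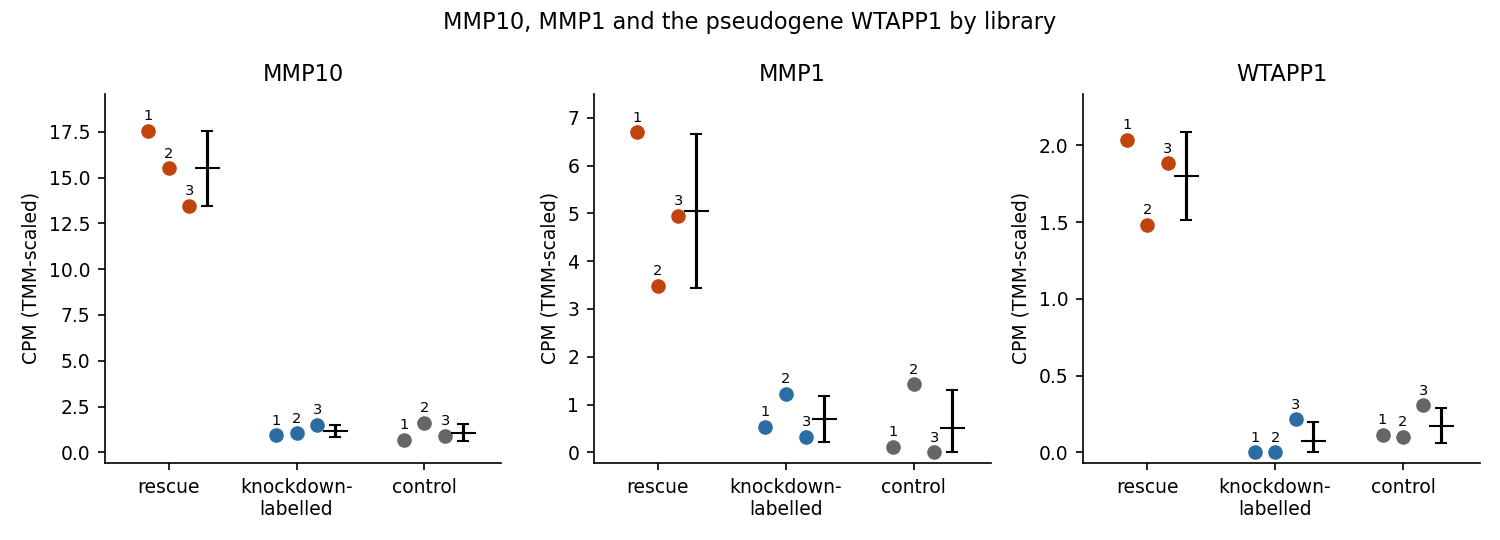
Level in CPM (TMM-scaled, vertical axis) of MMP10, MMP1 and the pseudogene WTAPP1 in each rescue, knockdown-labelled and control library; numbered points are libraries, the bar is the mean with SD (n = 3), and lower bars stop at 0. The 3 rescue libraries lie above the other 6 in each panel, at 13.5 to 17.6 CPM for MMP10 and 3.49 to 6.70 CPM for MMP1.

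WTAPP1, a transcribed processed pseudogene, runs on the opposite strand across this stretch (chr11:102746968-102836766, plus strand, GRCh38) and was named after its values were seen. WTAPP1 had 31, 17 and 19 counts in rescue, 0, 0 and 2 in knockdown-labelled, and 1, 1 and 3 in control libraries. The rescue libraries again stood above the rest, at 1.48 to 2.04 CPM, and no test is given since the gene passed the filter on low counts through them. Of its 3331 exon bases, 0 overlap exons of MMP10, 150 overlap MMP1 and 32 overlap MMP3. The strand setting of the counting is not stated, so reads of WTAPP1 and MMP1 within those 150 bases cannot be told apart.

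Of the other MMP genes of the cluster, only MMP13 was high enough to be tested. It did not show the contrast seen for MMP10. MMP13, a collagenase that starts 175 kb from MMP10, had 46, 17 and 30 counts in rescue, 3, 42 and 23 in knockdown-labelled, and 13, 13 and 15 in control libraries. Its groups overlapped, with a log2 fold change of 0.14 (SE 0.571) for rescue against knockdown-labelled and an edgeR adjusted p of 0.900. MMP7, MMP8 and MMP20 were at 0 in all 9 libraries, and MMP12 and MMP27 had at most 2 counts in any library, too few for a contrast to be seen.

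**Figure D2:**
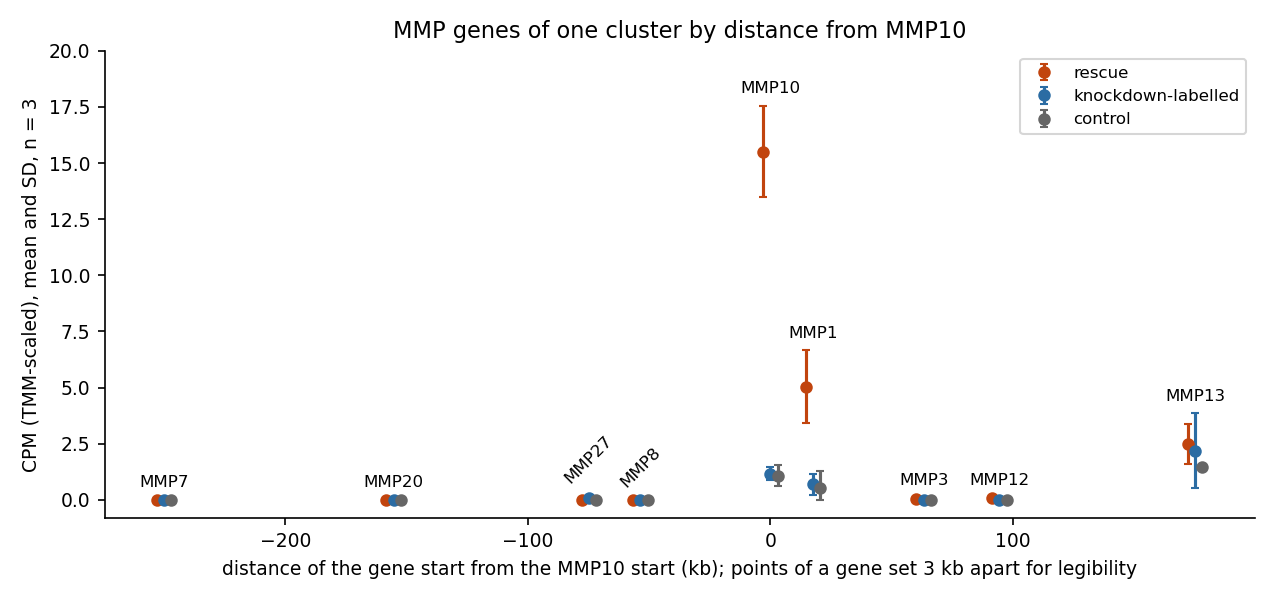
Mean level in CPM (vertical axis, TMM-scaled, with SD, n = 3, lower bars stopping at 0) of the MMP genes of the chromosome 11 cluster by the distance of their start from that of MMP10 in kb (horizontal axis), for rescue, knockdown-labelled and control libraries. The rescue points stand apart at MMP10 (15.5 CPM) and MMP1 (5.05 CPM), while at MMP13 the 3 groups overlap.

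Per kilobase of exon, which allows genes to be compared, MMP10 ranked 3 of the 9 genes in rescue libraries with 8.83 CPM per kb, and 4 in both other groups with 0.666 in knockdown-labelled and 0.615 in control libraries. MMP1 ranked 4 in rescue with 2.56 CPM per kb, 6 in knockdown-labelled with 0.354 and 7 in control libraries with 0.261. In rescue the ranges of BSG (189 to 234), MMP15 (15.1 to 18.6), MMP10 (7.67 to 9.98) and MMP1 (1.77 to 3.40 CPM per kb) did not touch in that order, whereas that of TIMP1 (0.469 to 4.63) covered that of MMP1. Further down in rescue came TIMP3 at 0.952, TIMP2 at 0.824, MMP14 at 0.205 and MMP3 at 0.0161 CPM per kb. Below MMP15 in the other groups, TIMP2, MMP10, TIMP1, MMP1 and TIMP3 overlapped with their neighbours in the order. MMP10 made up 20.6%, 21.9% and 17.5% of the summed level per length of 23 MMP genes in rescue libraries, against 1.58%, 1.72% and 3.09% in knockdown-labelled and 1.16%, 2.42% and 1.56% in control libraries. The 21 MMPs other than MMP10 and MMP1 summed to 35.0, 29.7 and 33.5 CPM per kb in rescue, 33.1, 33.7 and 26.9 in knockdown-labelled, and 33.7, 36.7 and 33.0 in control libraries, and these ranges overlap.

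MMP15 took the largest share of the summed MMP level per length, 37.3% to 42.3% in rescue, 43.3% to 50.8% in knockdown-labelled and 51.5% to 59.5% in control libraries. It encodes the membrane-type enzyme MT2-MMP and lies at chr16:58025566-58046901 on the plus strand (GRCh38). Its level was 82.2, 66.5 and 81.7 CPM in rescue, 76.1, 73.1 and 53.5 CPM in knockdown-labelled, and 89.8, 87.3 and 77.4 CPM in control libraries. Rescue overlapped both other groups, whereas every knockdown-labelled library lay below every control library. The log2 fold change was 0.19 for rescue against knockdown-labelled (edgeR adjusted p = 0.457), -0.14 for rescue against control (adjusted p = 0.821) and -0.33 for knockdown-labelled against control (SE 0.152, adjusted p = 0.269). On this scale knockdown library 3 was the lowest of the 9. That order rests on the TMM factors, which were 0.794, 0.801 and 1.11 for knockdown libraries 1, 2 and 3. By library size these 3 were nearly level, with 567, 830 and 493 MMP15 counts out of 9386058, 14185252 and 8292433. With knockdown libraries 1 and 2 left out together, MMP15 passed as lower in the remaining knockdown-labelled library than in control (-0.69, adjusted p = 0.00787) and as higher in rescue than in it (0.55, adjusted p = 0.0191), with the lone library assumed to vary like the other groups. With library size alone as scaling it also passed as higher in rescue than in knockdown-labelled (0.46, adjusted p = 0.0480).

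MMP14, the membrane-type enzyme MT1-MMP that activates pro-MMP2, was low in every library (chr14:22836557-22849027, plus strand, GRCh38). It had 15, 10 and 9 counts in rescue, 2, 5 and 18 in knockdown-labelled, and 6, 12 and 11 in control libraries. Knockdown library 3 was the highest and libraries 1 and 2 the lowest of the 9 on the CPM scale, at 0.268, 0.440 and 1.95 CPM for libraries 1, 2 and 3. Rescue libraries held 0.872 to 0.986 CPM and control libraries 0.697 to 1.22 CPM. The log2 fold change was 0.04 for rescue against knockdown-labelled (SE 0.646, 95% interval -1.38 to 1.46, edgeR adjusted p = 0.975), -0.15 for rescue against control (adjusted p = 0.964) and -0.19 for knockdown-labelled against control (adjusted p = 0.902). An interval of that width leaves changes of over 2-fold either way undetectable at this depth.

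BSG was the most abundant of the 9 genes, and its level within the knockdown-labelled group was split. Its gene lies at chr19:571277-583493 on the plus strand (GRCh38). BSG was at 802, 719 and 890 CPM in rescue, 1621, 1566 and 662 CPM in knockdown-labelled, and 874, 865 and 906 CPM in control libraries. Knockdown libraries 1 and 2 were above all others and knockdown library 3 was below all others. The TMM factors of these libraries (0.794, 0.801 and 1.11) widened the split relative to library size alone. The mean was 803.5 ± 85.7 CPM in rescue, 1283 ± 538 in knockdown-labelled and 881 ± 21.7 in control libraries (SD, n = 3 each). The log2 fold change was -0.68 for rescue against knockdown-labelled (SE 0.277, edgeR adjusted p = 0.140), -0.13 for rescue against control (adjusted p = 0.920) and 0.54 for knockdown-labelled against control (adjusted p = 0.314).

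The antisense gene BSG-AS1 was counted at 21.5 to 43.2 CPM over the 9 libraries, and its reads cannot be told from those of BSG where they overlap. Both BSG comparisons that involve the knockdown-labelled group changed with knockdown library 3. Without it, BSG passed as lower in rescue than in knockdown-labelled (-0.99, adjusted p = 9.62e-08) and as higher in knockdown-labelled than in control (0.85, adjusted p = 1.02e-06), in fits in which 6745 and 5691 genes passed in all. Without knockdown libraries 1 and 2, the signs turned to 0.30 for rescue against knockdown-labelled and -0.44 for knockdown-labelled against control (adjusted p = 0.0301), with the lone knockdown library assumed to vary like the other groups. With all 9 libraries and no filter on low counts, BSG also passed as lower in rescue than in knockdown-labelled (-0.67, adjusted p = 0.00292). The mitochondrial share of counts was split in the same way between these 3 libraries, and its part in the BSG level was not tested.

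**Figure D3:**
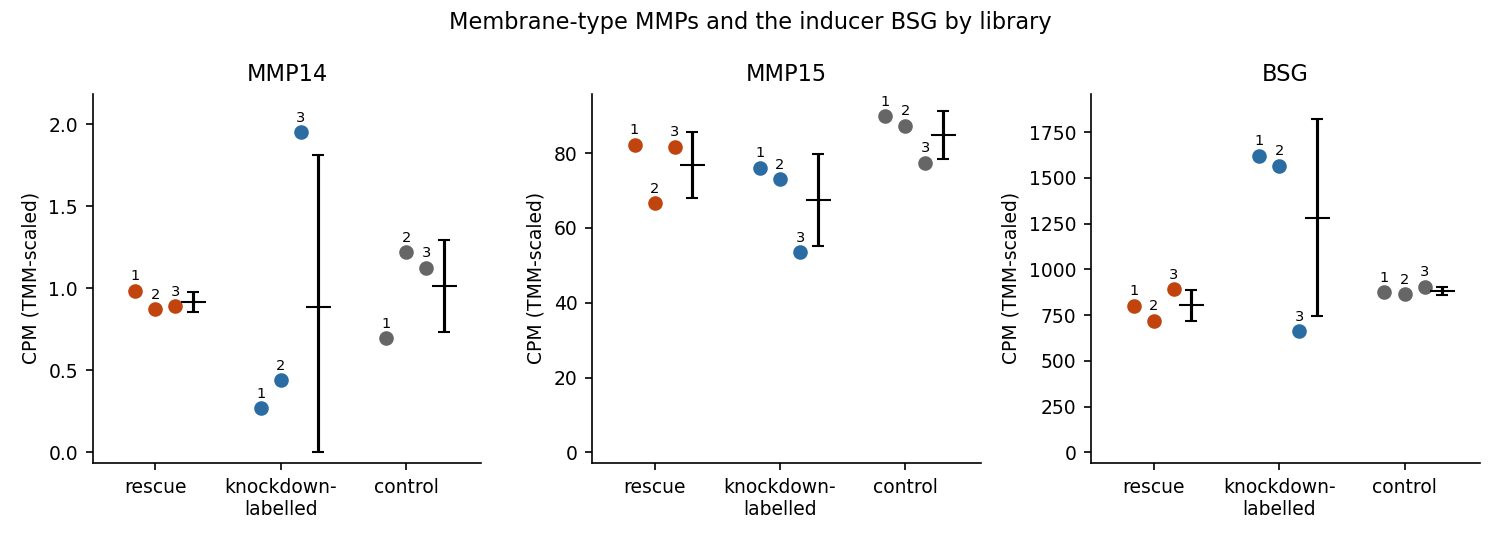
Level in CPM (TMM-scaled, vertical axis) of MMP14, MMP15 and BSG in each rescue, knockdown-labelled and control library, with numbered points for libraries and a bar for the mean and SD (n = 3, lower bars stopping at 0). Knockdown libraries 1 and 2 lie above all others for BSG (1621 and 1566 CPM) and library 3 below (662 CPM); for MMP14 library 3 is the highest of the 9.

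TIMP1, a secreted inhibitor of most soluble MMPs, was low everywhere except in rescue library 3. Its gene lies at chrX:47582313-47586789 on the plus strand (GRCh38), inside SYN1 on the other strand, with 0 shared exon bases. It had 11, 13 and 72 counts in rescue, 7, 10 and 2 in knockdown-labelled, and 4, 11 and 14 in control libraries. Rescue library 3, at 7.13 CPM, was far above rescue libraries 1 and 2 at 0.723 and 1.13 CPM, which lay within the control range of 0.465 to 1.43 CPM. The log2 fold change was 2.09 for rescue against knockdown-labelled (SE 0.890, edgeR adjusted p = 0.153), 1.52 for rescue against control (adjusted p = 0.581) and -0.58 for knockdown-labelled against control (adjusted p = 0.787). Without rescue library 3 the first became 0.45 and the second -0.13. TIMP1 passed in 1 alternative, the fit with no filter on low counts, as higher in rescue than in knockdown-labelled (adjusted p = 0.00823). In the main fit TIMP1 passed the filter only with rescue libraries counted, so its p-values are a description.

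TIMP3, an inhibitor that binds to the matrix and also blocks ADAM proteases, was highest in rescue library 3. Its gene lies at chr22:32801701-32863043 on the plus strand (GRCh38), inside SYN3 on the other strand, with 0 shared exon bases. It had 7, 33 and 99 counts in rescue, 14, 9 and 5 in knockdown-labelled, and 1, 4 and 33 in control libraries. Library 3 was the highest within both the rescue group, at 9.81 CPM, and the control group, at 3.38 CPM, rescue library 2 was at 2.88 CPM, and the groups overlapped. The log2 fold change was 2.04 for rescue against knockdown-labelled (SE 1.10, edgeR adjusted p = 0.255), 1.70 for rescue against control (adjusted p = 0.644) and -0.35 for knockdown-labelled against control (adjusted p = 0.901). Without rescue library 3 the first became 0.65 and the second 0.31. With no filter on low counts, TIMP3 passed as higher in rescue than in both knockdown-labelled (adjusted p = 0.00161) and control (adjusted p = 0.0432). In the main fit TIMP3, too, passed the filter only with rescue libraries counted, so its p-values are a description.

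Rescue library 3, the highest for TIMP1 and TIMP3, was also the highest for the sum of stromal markers, though not for each of them. The 8 fibroblast and stroma markers summed to 35.4, 51.5 and 117 CPM in rescue, 40.7, 36.2 and 37.0 CPM in knockdown-labelled, and 21.0, 17.0 and 67.8 CPM in control libraries. All 8 had counts in rescue and control groups, and PDGFRA was at 0 in the knockdown-labelled group. COL1A2, a fibrillar collagen chain, had 24, 66 and 173 counts in rescue, 21, 36 and 18 in knockdown-labelled, and 3, 6 and 74 in control libraries. Rescue library 3 and control library 3 were the highest of their groups for the summed markers, COL1A2 and TIMP3 alike. COL1A1 had the most counts of the 8 markers in every library, with 299, 355 and 772 in rescue. Other markers went another way in rescue: LUM had 142, 71 and 58 counts, and PDGFRA had 0, 4 and 0. The part of the stromal marker level in the TIMP1 and TIMP3 values was not tested.

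TIMP2, which also takes part in pro-MMP2 activation, was the steadiest of the low genes (chr17:78852977-78925387, minus strand, GRCh38). It had 68, 55 and 47 counts in rescue, 41, 39 and 34 in knockdown-labelled, and 23, 24 and 35 in control libraries. In CPM this was 4.47, 4.80 and 4.66 in rescue, 5.50, 3.43 and 3.69 in knockdown-labelled, and 2.67, 2.44 and 3.58 in control libraries. Each rescue library lay above each control library, while the knockdown-labelled range covered that of rescue. The log2 fold change was 0.68 for rescue against control (SE 0.291, 95% interval 0.03 to 1.32, edgeR adjusted p = 0.441), 0.15 for rescue against knockdown-labelled (adjusted p = 0.771) and 0.52 for knockdown-labelled against control (adjusted p = 0.367). It passed in none of the 19 alternatives in any comparison.

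**Figure D4:**
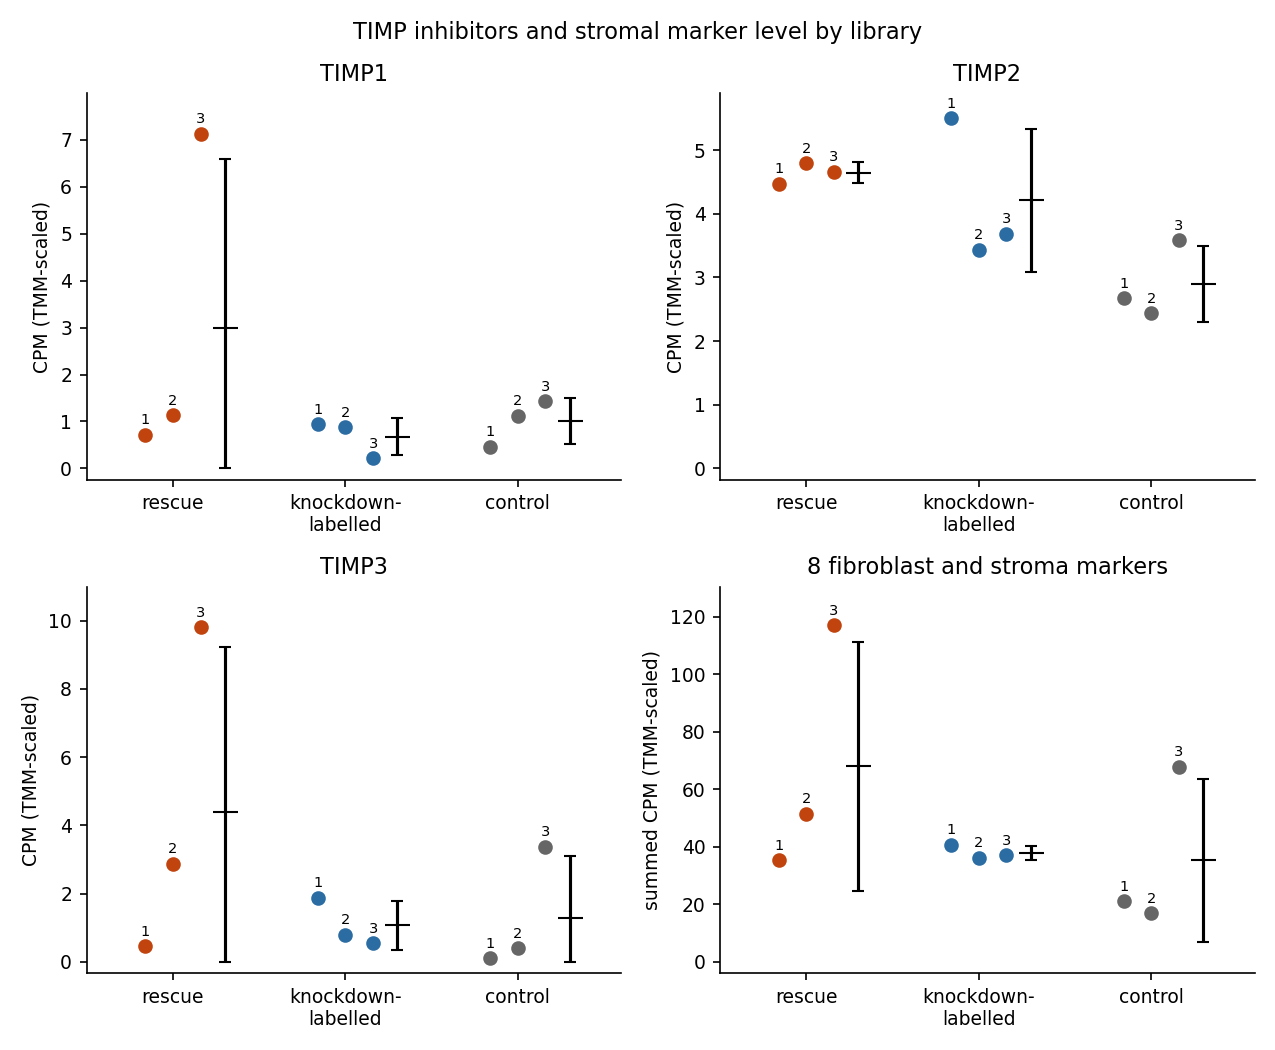
Level in CPM (TMM-scaled, vertical axis) of TIMP1, TIMP2 and TIMP3, and the summed CPM of 8 fibroblast and stroma markers, in each rescue, knockdown-labelled and control library; numbered points are libraries, the bar is the mean with SD (n = 3), and lower bars stop at 0. Rescue library 3 is the highest for TIMP1 (7.13 CPM), TIMP3 (9.81 CPM) and the stromal markers (117 CPM), while TIMP2 stays between 2.44 and 5.50 CPM.

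Of the 9 genes, 8 passed the filter on low counts and MMP3 did not. MMP10 and MMP1 reached the filter level of 1.06 CPM in all 3 rescue libraries but in at most 1 library of each other group, so they entered the test through the group in which they were high. TIMP1 reached it in 2 rescue, 0 knockdown-labelled and 2 control libraries, and TIMP3 in 2, 1 and 1. The filter asked for 3 libraries, so both passed it only with rescue libraries counted. Their p-values are therefore also a description. Among the 7 tested genes other than MMP10, 0 passed for rescue against knockdown-labelled in edgeR, where 9.83% of all 16796 tested genes passed. At an unadjusted p under 0.05 there were 3, MMP1, TIMP1 and BSG, against 28.3% of all genes, and DESeq2 and limma-voom each called 1, MMP1. Groups did not overlap for 1 of the 7, MMP1, against 28.6% of all genes. For rescue against control 0 of the 7 passed, against 0.149% of all genes. At an unadjusted p under 0.05 there were 2, MMP1 and TIMP2, against 10.5%, with 1 call by DESeq2 and 0 by limma-voom. Those 2 were also the genes whose groups did not overlap, against 26.4% of all genes. For knockdown-labelled against control 0 of the 7 passed, against 0.00595% of all genes, 0 had an unadjusted p under 0.05, against 19.1%, and DESeq2 and limma-voom called 0. Groups did not overlap for 1, MMP15, against 21.2%.

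The median log2 fold change of the 7 was 0.19 for rescue against knockdown-labelled, 0.68 for rescue against control and -0.19 for knockdown-labelled against control, beside 0.00, -0.01 and 0.02 for all tested genes. MMP1, TIMP1 and TIMP3 are among the 7 and passed the filter only with rescue libraries counted, which favours higher values in rescue. The medians are therefore a description. The comparisons share groups, rescue in those against knockdown-labelled and control, and control in those with rescue and knockdown-labelled. Over all genes, 745 passed as higher and 906 as lower in rescue than in knockdown-labelled, a split that became 1322 and 230 with library size alone, which moved the median of all genes to 0.24 there and to -0.21 for knockdown-labelled against control. Relative to that shift, the differences of MMP10 and MMP1 in rescue kept their direction.

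**Figure D5:**
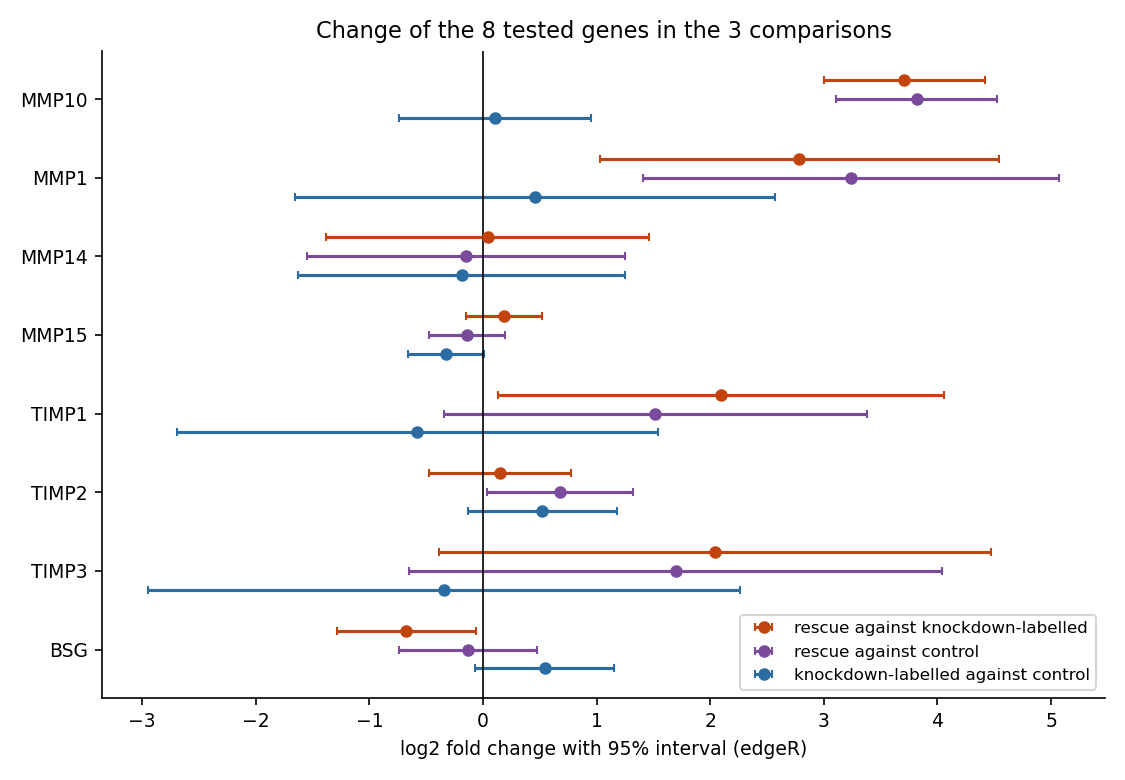
Log2 fold change (horizontal axis) with its 95% interval from edgeR for the 8 tested genes in the comparisons of rescue with knockdown-labelled, rescue with control and knockdown-labelled with control libraries. MMP10 and MMP1 lie to the right in both comparisons that involve rescue (3.71 and 2.78 against knockdown-labelled). MMP10 was chosen for this difference and MMP1 passed the filter on low counts through rescue, so both are shown as a description. TIMP1 and TIMP3 passed that filter only with rescue libraries counted and are also a description.

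The pattern of MMP10 over the 9 libraries was most like that of UGT2B28 itself, followed by MMP1. Likeness was measured as the root mean square difference of mean-centred log2 CPM over the 9 libraries, among 12036 protein-coding genes with a mean of at least 1 CPM, whose median difference from MMP10 was 1.76. The 5 nearest were UGT2B28 at 0.614, MMP1 at 0.836, CNIH3 at 0.839, DOCK3 at 0.865 and PFKP at 0.911. MMP1 had a mean of 5.05 CPM in rescue, and CNIH3, which encodes an AMPA receptor auxiliary protein, had 2.37, 8.46 and 7.23 CPM in rescue, 0.403, 0.704 and 0.760 CPM in knockdown-labelled, and 0.697, 2.04 and 0.818 CPM in control libraries. DOCK3, an activator of Rac, had 9.92, 7.06 and 7.53 CPM in rescue, 1.88, 2.73 and 2.06 CPM in knockdown-labelled, and 1.39, 1.73 and 2.35 CPM in control libraries. PFKP, a glycolytic phosphofructokinase, had 17.2, 10.6 and 19.9 CPM in rescue, 3.09, 3.52 and 1.85 CPM in knockdown-labelled, and 1.63, 1.43 and 5.63 CPM in control libraries. All 3 were higher in each rescue library than in any other, which follows from how they were found. TIMP1 ranked 1344 and TIMP3 ranked 6307 in this order.

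The rest of the MMP family gave no call. Of 18 other MMP genes and TIMP4, 6 were at 0 in all 9 libraries, namely MMP7, MMP8, MMP20, MMP26, MMP28 and TIMP4. The other 13 had counts and 9 of them were tested. In edgeR 0 passed for rescue against knockdown-labelled, rescue against control or knockdown-labelled against control. Of all genes, 9.83%, 0.149% and 0.00595% passed in that order. At an unadjusted p under 0.05 there were 0, 1 and 1 in the same order, against 28.3%, 10.5% and 19.1% of all genes. The gene in both cases was MMP11, stromelysin-3, at 9.66, 9.94 and 9.21 CPM in rescue, 7.52, 8.89 and 10.7 CPM in knockdown-labelled, and 14.6, 14.2 and 12.1 CPM in control libraries. Control libraries were the high ones and overlapped with neither other group, with a log2 fold change of -0.50 for rescue against control (adjusted p = 0.359) and of -0.58 for knockdown-labelled against control (adjusted p = 0.140). MMP24, a membrane-type enzyme, averaged 27.3 ± 0.920 CPM in rescue, 29.8 ± 8.39 in knockdown-labelled and 25.1 ± 2.15 in control libraries (SD, n = 3 each).

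Some genes that act around the MMPs passed when rescue was set against knockdown-labelled libraries. Of 21 tested transcription factors known at MMP promoters, 5 passed as higher and 0 as lower in rescue (background 4.44% higher and 5.39% lower), with a median log2 fold change of 0.46. One was EGR1 (6.38), which passed the filter on low counts through the rescue libraries, so its place in these counts is a description. The others were the AP-1 subunits FOSB (2.26, adjusted p = 0.0271), FOSL2 (1.21, adjusted p = 0.0200) and JUNB (0.78, adjusted p = 0.0255), and the repressor HDAC7 (0.44, adjusted p = 0.0409). HDAC7 differed little between rescue and control (-0.01) and was lower in knockdown-labelled than in control libraries (-0.45, edgeR adjusted p = 0.0993). FOSB, FOSL2 and JUNB were also higher in rescue than in control (2.98, 1.25 and 0.88) but did not pass there. FOSL2 was at 37.6, 60.9 and 42.3 CPM in rescue, against 16.5, 22.6 and 21.3 CPM in knockdown-labelled libraries. EGR1 was at 23.8, 98.4 and 23.6 CPM in rescue, against 0.134, 0.352 and 1.19 CPM in knockdown-labelled libraries. Rescue library 2 was the highest for EGR1, FOSB, FOSL2 and JUNB, and FOSB was at 8.28, 35.1 and 9.61 CPM in rescue, against 4.16, 3.35 and 3.58 CPM in knockdown-labelled libraries. Without rescue library 2, 1 of the 21 passed, EGR1 (5.35, given as a description). FOSB was then at 1.28 (edgeR adjusted p = 0.0849), FOSL2 at 0.98 (0.0830), JUNB at 0.57 (0.0977) and HDAC7 at 0.49 (0.0896). With any 1 library left out, 1 to 8 passed as higher, in fits in which 134 to 6745 of all genes passed in either direction. The AP-1 subunits FOS (1.40, adjusted p = 0.136) and JUN (0.48, adjusted p = 0.310) did not pass. Against control, 1 of the 21 passed as higher in rescue (background 0.143% higher), with a median log2 fold change of 0.60. It was EGR1 (6.07), again as a description since it was tested through rescue. With any 1 library left out, 0 to 11 passed as higher, in fits in which 1 to 1276 of all genes passed in either direction.

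Of 23 tested matrix proteins that MMPs can cut, 5 passed as higher and 0 as lower in rescue than in knockdown-labelled libraries (background 4.44% higher and 5.39% lower), with a median of 0.60. These were COL7A1, the anchoring fibril collagen (0.94, adjusted p = 0.0105), the laminin chains LAMC1 (0.63, adjusted p = 0.0185) and LAMB2 (0.53, adjusted p = 0.0271), and the basement membrane proteoglycans AGRN (0.65, adjusted p = 0.0197) and HSPG2 (0.60, adjusted p = 0.0418). HSPG2 differed little between rescue and control (-0.04) and was lower in knockdown-labelled than in control libraries (-0.63, edgeR adjusted p = 0.0967). COL7A1, LAMC1, LAMB2 and AGRN were higher in rescue than in control (0.34, 1.00, 0.39 and 0.25). Against control, 3 passed as higher and 0 as lower in rescue: LAMC1 (1.00, adjusted p = 0.0258), the small proteoglycan DCN (2.21, adjusted p = 0.0326) and fibronectin, FN1 (0.92, adjusted p = 0.0449), against a background of 0.143% higher. With any 1 library left out, 1 to 8 of the 23 passed as higher against knockdown-labelled and 0 to 5 against control. Over all genes, 134 to 6745 and 1 to 1276 passed in either direction in those fits. DCN, a stromal product, was at 13.9, 12.3 and 12.7 CPM in rescue, against 2.67, 3.46 and 2.25 CPM in control libraries. It was at 9.26, 13.03 and 5.425 CPM in knockdown-labelled libraries, also above every control library (1.73, edgeR adjusted p = 0.0712). Rescue and knockdown-labelled libraries overlapped for DCN (0.48, adjusted p = 0.303) and FN1 (0.34, adjusted p = 0.157). FN1 (0.58, adjusted p = 0.0967) and LAMC1 (0.37, adjusted p = 0.168) were likewise higher in knockdown-labelled than in control libraries. The part of the stromal marker level in the DCN value was not tested.

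Over all genes 4.44% passed as higher and 5.39% as lower in rescue than in knockdown-labelled libraries. In lists of 6 to 13 tested genes, 1 or 2 calls are too few to be read as a share above these. Of 13 tested genes of MMP activation and pericellular serine proteolysis, 2 passed as higher and 0 as lower in rescue than in knockdown-labelled libraries, the proprotein convertase PCSK7 (0.67, adjusted p = 0.0150) and the androgen-regulated protease TMPRSS2 (0.64, adjusted p = 0.0402). Of 6 tested ADAM and ADAMTS genes, 0 passed as higher and 1 as lower, ADAM17, the TNF-converting enzyme (-0.48, adjusted p = 0.0316). ADAM17 differed little between rescue and control (0.04) and was higher in knockdown-labelled than in control libraries (0.51, edgeR adjusted p = 0.0839). Of 10 tested partners of BSG, 0 passed as higher and 1 as lower, PPIA, or cyclophilin A, a ligand of BSG (-0.88, adjusted p = 0.0332). PPIA was at 1002, 1006 and 1030 CPM in rescue, against 2250, 2143 and 1188 CPM in knockdown-labelled libraries, so that knockdown libraries 1 and 2 were the high ones, as for BSG. Without rescue library 2, PCSK7 (0.59, edgeR adjusted p = 0.0655), TMPRSS2 (0.68, 0.102), ADAM17 (-0.55, 0.0655) and PPIA (-0.87, 0.115) did not pass. Against control, 0 of these 3 groups' genes passed in rescue, where 0.149% of all genes passed. At an unadjusted p under 0.05 there were 4 of 13, 1 of 6 and 0 of 10 in that order, against 10.5% of all genes. Of 5 other metalloproteinase inhibitors 2 were tested, and 0 passed or had an unadjusted p under 0.05 in any comparison. Over all genes, 10.5% to 28.3% had an unadjusted p under 0.05, depending on the comparison. For knockdown-labelled against control, 0 genes passed in any of these lists in edgeR, where 0.00595% of all genes passed. At an unadjusted p under 0.05, where 19.1% of all genes lay, there were 7 of 23 matrix proteins, 4 of 10 partners of BSG, 2 of 13 genes of MMP activation, 2 of 6 ADAM or ADAMTS genes and 1 of 21 transcription factors.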

How the data were processed

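Total RNA of 9 LAPC4 libraries was sequenced. Per the submitters' processing notes the reads went through FastQC, cutadapt, STAR and HTSeq on the hg38 build, and versions, annotation and strand setting do not appear in the sources used here. The authors deposited raw counts of reads per gene as whole numbers. Rows that name no gene (no feature, 43.7% to 48.7% of each library) were left out of library sizes and tests.

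Testing used the edgeR 4.0.16 quasi-likelihood F test (R 4.3.3) on genes kept by filterByExpr at a minimum count of 10, scaled by TMM, with the 9 libraries fitted together and 6 residual degrees of freedom left. The threshold was an adjusted p (Benjamini-Hochberg over 16796 genes) under 0.05. The SE is the log2 fold change over the square root of F, and log2 CPM used a prior count of 2. The fit was tested on simulated data. Positions and exon lengths are from GENCODE 29, and promoters are from RefSeq.

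Members and lists were chosen with earlier results of these data known. Named were the 9 genes, up to 4 passing genes per list and comparison, other MMP or TIMP genes with counts, the 5 pattern neighbours and UGT2B28. HDAC7, HSPG2 and WTAPP1 were named after their values were seen. Alternatives were DESeq2 1.42.0 size factors and Wald test, limma-voom 3.58.1, library size alone, other filters, only the groups compared, a replicate block, each library left out, and knockdown libraries 1 and 2 left out together. Leaving out rescue library 3 and control library 3 together was added after seeing the data, as were the list counts under each alternative.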

Additional observations from a re-analysis of the deposited data

How the results depend on the processing

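In edgeR, 1651 genes passed for rescue against knockdown-labelled, 25 for rescue against control and 1 for knockdown-labelled against control, and 0 members other than MMP10 passed in each. For the 3 comparisons in that order, genes passing numbered 2636, 401 and 1045 without a filter, 2702, 326 and 996 with DESeq2, 7, 962 and 0 with only the 2 groups compared, and 3619, 977 and 2115 without knockdown libraries 1 and 2. They numbered 10, 0 and 0 without rescue library 3 and control library 3 together. Limma-voom gave 13 for rescue against control, and library size alone gave 155 for knockdown-labelled against control. With 1 library left out they ran from 134 to 6745, from 1 to 1276 and from 0 to 5691. Members passing for rescue against knockdown-labelled were 2 with library size alone, 4 without a filter, 1 with DESeq2, 1 with limma-voom and 2 without knockdown libraries 1 and 2. For rescue against control they were 2 without a filter, and 1 each with DESeq2, only the 2 groups and without knockdown libraries 1 and 2. For knockdown-labelled against control they were 2 without those libraries. With 1 library left out they ran from 0 to 2, from 0 to 1 and from 0 to 1.

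Replicate numbers did not pair the samples: same-numbered libraries deviated together with correlations of -0.36 to 0.08. With the replicate block, 442, 4 and 0 genes and 0, 0 and 0 members passed, and TIMP3 for knockdown-labelled against control turned to 0.57.

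Other reversals lay in values that had not passed. With 1 library left out, MMP14 ran from -0.35 to 1.29 for rescue against knockdown-labelled, from -0.35 to 0.0014 for rescue against control and from -1.45 to 0.20 for knockdown-labelled against control, and TIMP1 ran from -0.13 (without rescue library 3) to 2.00 for rescue against control. For knockdown-labelled against control, MMP10 ran from -0.12 to 0.53, MMP1 from -0.31 to 3.47 and TIMP3 from -0.95 to 1.90. Without knockdown libraries 1 and 2, MMP14 and BSG became -1.05 and 0.30 for rescue against knockdown-labelled, and MMP1, MMP14 and BSG became -0.70, 0.90 and -0.44 (BSG past the threshold) for knockdown-labelled against control. In that comparison MMP10 became -0.11 with library size alone, and TIMP3 0.49 with limma-voom. Leaving out rescue library 3 and control library 3 together gave -0.015 for MMP10, -0.14 for MMP1 and 1.90 for TIMP3 there. The causes were not tested. At 8132206 to 14185252 counts per library, genes near 1 CPM rest on few reads.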
